A study of Mus musculus with 4 samples.

Results

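The B cell receptor signalling complex and its coreceptors were followed here as 9 genes, of the 32285 measured, in spleen cells of 4 mice profiled by droplet single-cell RNA sequencing. The genes were chosen by name: Cd79a, Cd79b, Vpreb3, Fcmr, Cd22, Ms4a1, Fcer2a, Cr2 and Tnfrsf13c, and all 9 were present in each of the 4 gene tables. The D3TA group was 2 female C57BL/6J mice heterozygous for a Ccnd3 allele edited with CRISPR/Cas9 to carry a threonine-to-alanine substitution in cyclin D3, a regulator of the G1 phase of the cell cycle. The WT group was 2 wild-type females of the same strain and ages. The mice were 12 and 16 months old, an age at which the knock-in animals have a myeloproliferative neoplasm, an overproduction of myeloid blood cells. Ages were not given mouse by mouse. The allele is present from the germ line in every tissue, so that B cells, plasma cells and myeloid cells all carried it in D3TA mice. Each mouse gave 1 library, named by its genotype and replicate number.

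Membrane immunoglobulin has no signalling domain of its own and reaches the cell surface only together with the Cd79a and Cd79b chains, whose cytoplasmic tails are phosphorylated when antigen binds. Around this core sit molecules that set its threshold: the complement receptor Cr2 lowers it for antigen tagged with complement, and Cd22, a lectin that binds sialic acid, raises it by recruiting a phosphatase. In the mouse spleen, follicular B cells carry much Fcer2a protein and marginal zone B cells carry little of it and much Cr2 protein. Plasma cells, the antibody-secreting end of the lineage, shut down much of this surface equipment.

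In GENCODE's GRCm38 annotation, Cd79a lies at chr7:24897381-24902197 on the plus strand, Cd79b at chr11:106311341-106314762 on the minus strand and Vpreb3 at chr10:75943057-75949657 on the plus strand. Cr2 lies at chr1:195136811-195176716 on the minus strand and Fcmr, on the same chromosome, at chr1:130865669-130880791 on the plus strand. Cd22 lies at chr7:30865402-30880342, Ms4a1 at chr19:11249675-11266241, Fcer2a at chr8:3681737-3694175 and Tnfrsf13c at chr15:82221743-82224369, all 4 on the minus strand. An annotated gene overlaps Vpreb3 (Gm16221), Cd22 (Gm29439) and Ms4a1 (4930526L06Rik) on the opposite strand. Whether the counting used strand is not given in the sources used here, so reads of these overlapping genes may share counts with the 3 members.

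RefSeq promoter windows of GRCm38.p6, from 250 bases before to 50 after a start site, were matched for 7 of the 9 members. Those of Cd79a, Vpreb3, Cr2 and Fcer2a are shown 5′ to 3′ on the gene's strand because the account of levels by cluster below sets Cd79a, present in all B cell clusters, beside Vpreb3, Cr2 and Fcer2a, which were not level over them. The windows are chr7:24897247-24897546 for Cd79a, chr10:75948050-75948349 for Vpreb3, chr1:195176670-195176969 for Cr2 and chr8:3694125-3694424 for Fcer2a. The Vpreb3 window lies inside the span that GENCODE gives the gene, at a later start. Capitals mark matches to motifs of B cell transcription factors: the octamer ATTTGCAT, the EBF core CCCNNGGG and the ETS sequence AGGAAGT, each searched on both strands.
Cd79a: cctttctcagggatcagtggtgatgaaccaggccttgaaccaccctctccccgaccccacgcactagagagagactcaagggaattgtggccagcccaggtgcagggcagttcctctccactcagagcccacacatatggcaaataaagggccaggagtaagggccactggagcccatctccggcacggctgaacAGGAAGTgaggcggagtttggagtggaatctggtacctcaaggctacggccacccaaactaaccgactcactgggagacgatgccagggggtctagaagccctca
Vpreb3: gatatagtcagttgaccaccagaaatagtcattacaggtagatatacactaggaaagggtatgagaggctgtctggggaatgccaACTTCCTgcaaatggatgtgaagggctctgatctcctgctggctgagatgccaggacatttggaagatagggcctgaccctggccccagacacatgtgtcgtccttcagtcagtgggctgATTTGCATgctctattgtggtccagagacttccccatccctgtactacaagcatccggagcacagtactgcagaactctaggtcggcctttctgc
Cr2: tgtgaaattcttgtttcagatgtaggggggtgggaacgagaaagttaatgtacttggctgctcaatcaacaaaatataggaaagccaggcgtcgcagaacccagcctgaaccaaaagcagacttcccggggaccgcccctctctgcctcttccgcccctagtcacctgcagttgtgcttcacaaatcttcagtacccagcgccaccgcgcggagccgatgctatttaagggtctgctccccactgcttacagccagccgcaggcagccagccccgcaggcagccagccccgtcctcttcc
Fcer2a: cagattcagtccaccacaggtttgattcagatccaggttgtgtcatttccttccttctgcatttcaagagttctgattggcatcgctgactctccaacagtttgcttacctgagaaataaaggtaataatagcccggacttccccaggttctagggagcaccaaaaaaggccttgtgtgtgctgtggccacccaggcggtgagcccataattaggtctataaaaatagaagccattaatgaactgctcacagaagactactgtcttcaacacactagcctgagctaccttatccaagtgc
The Cd79a window held the ETS sequence 55 bases before the start site. The Vpreb3 window held the octamer 45 bases before it and the ETS sequence on the opposite strand 165 bases before it. No match to the 3 motifs was found in the windows of Cr2, Fcer2a, Fcmr or Tnfrsf13c, and the Cd22 window held the EBF core 48 bases before its start site. Of all 32817 promoters in the same table, 1.74% held the octamer, 13.7% the EBF core and 9.35% the ETS sequence. None of the matches overlapped another.

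The 2 D3TA libraries held 143811696 and 114430052 counts of unique molecular identifiers (UMIs, single RNA molecules) in 15294 and 13399 barcodes, and the 2 WT libraries held 83507825 and 81416981 in 25829 and 9888. After filtering, 52329 cells were analysed. WT replicate 1 stood apart, with a median of 1393 UMIs per cell against 7561 to 7912 in the other 3 libraries. Pairs of libraries shared between 18 and 89 cell barcodes. All 11 B cell, 12 T cell, 12 plasma cell and 20 neutrophil markers had UMIs in every library. With 2 mice a group, edgeR's quasi-likelihood test sets each difference against the spread between these 4 mice, partly pooled over genes. Its adjusted p-values therefore rest on these 4 mice only.

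B-cell-like cells, named from 11 markers that hold none of the 9 genes, made up 18.0% of cells in D3TA replicate 1 (95% exact interval 17.3 to 18.7) and 38.6% in D3TA replicate 2 (37.7 to 39.6). In the WT libraries they made up 55.2% (54.5 to 55.8) and 68.6% (67.5 to 69.6). These intervals, and those below, cover counting error only. The B-cell-like cells fell into 6 clusters. One had follicular and one marginal zone B cell markers. Another 3 scored highest for atypical B cell markers and are called the Zeb2, Sox5 and Agbl1 clusters after a leading gene of each. They differed in these markers. Over all libraries, Tbx21 stood at 228, 2.01 and 8.39 CPM and Itgax at 107, 0.490 and 2.21 CPM in the Zeb2, Sox5 and Agbl1 clusters, against 14.1 and 0.854 CPM in follicular B-like cells. The Sox5 cluster also scored 1.08 for B1 cell markers, beside 1.45 for atypical ones. The last matched no subset, had a median of 923 UMIs per cell, and took 7469 of its 8086 cells from WT replicate 1.

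**Figure D1:**
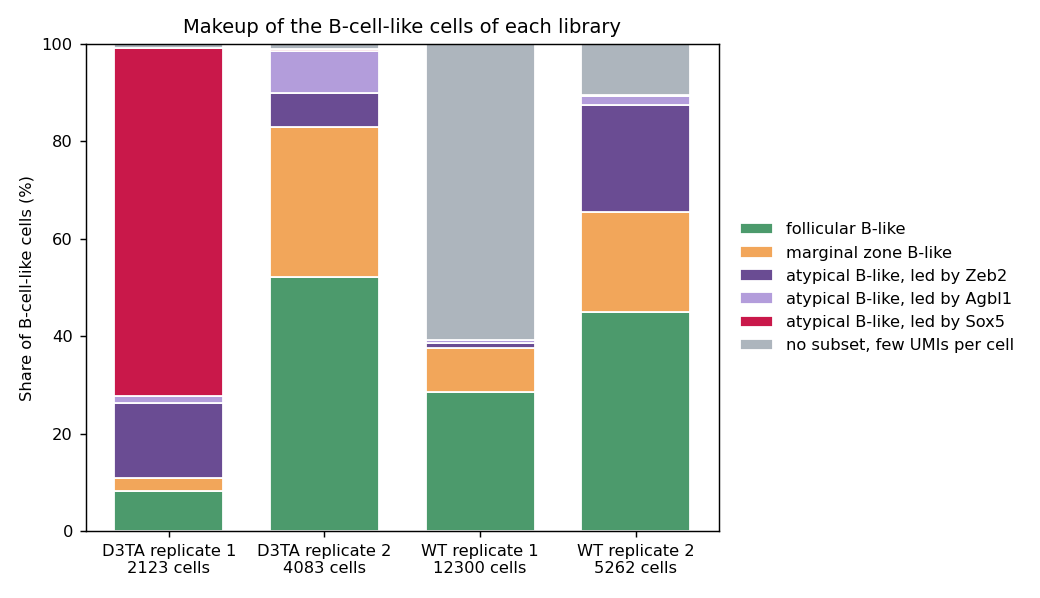
Share of B-cell-like cells, in percent, in each B cell cluster, 1 stacked bar per library with the D3TA libraries on the left. In D3TA replicate 1 the Sox5 cluster takes 71.4% of the bar, and follicular B-like cells take 8.20%. In D3TA replicate 2 follicular B-like cells take 52.3%.

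The 2 D3TA libraries differed from each other in B cell makeup. The Sox5 cluster, led by Mcc, Robo1, Fras1 and Sox5, held 1516 of the 2123 B-cell-like cells of D3TA replicate 1. It held 12 of 4083 in D3TA replicate 2, against 3 of 12300 and 5 of 5262 in the 2 WT libraries. Follicular B-like cells numbered 174 (8.20% of B-cell-like cells, 7.06 to 9.44) and 2135 (52.3%, 50.7 to 53.8) in the D3TA libraries. They numbered 3510 (28.5%, 27.7 to 29.3) and 2365 (44.9%, 43.6 to 46.3) in the WT libraries. Marginal zone B-like cells numbered 57 (2.68%, 2.04 to 3.47) and 1252 (30.7%, 29.2 to 32.1) in the D3TA libraries. They numbered 1129 (9.18%, 8.67 to 9.70) and 1084 (20.6%, 19.5 to 21.7) in the WT libraries. Every value of D3TA replicate 1 in a B cell subset other than the Sox5 and Zeb2 clusters therefore rests on few cells.

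The levels of the 9 genes across cell classes are given first, as CPM, a gene's UMIs per 1000000 UMIs of a class in a library, with no further scaling. The clusters were made without the 9 genes, but from the same cells, so these levels are a description with no test. Cd79a and Cd79b, the signalling pair, were present at similar levels in all B cell clusters. Cd79a averaged 1726 ± 286 CPM in follicular B-like cells, 1376 ± 140 in marginal zone B-like cells, 1509 ± 335 in the Zeb2 cluster and 1472 ± 228 in the Agbl1 cluster (SD, n = 4 libraries each). In the Sox5 cluster of D3TA replicate 1 it stood at 1430 CPM. All of these ranges touch. Cd79b averaged 1142 ± 266 CPM in follicular, 976 ± 93.6 in marginal zone, 806 ± 123 in Zeb2-cluster and 1027 ± 103 in Agbl1-cluster cells, and stood at 956 CPM in the Sox5 cluster of D3TA replicate 1. In plasma cell-like cells Cd79a averaged 611 ± 138 CPM and Cd79b 287 ± 82.9 CPM (SD, n = 4 each), below the B cell clusters by more than the spread.

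Vpreb3 encodes a protein of the endoplasmic reticulum that binds immunoglobulin chains and is best known from precursor B cells. Its levels in follicular B-like cells were 663 and 122 CPM in the D3TA libraries, against 214 and 184 CPM in the WT libraries. In marginal zone B-like cells it averaged 64.5 ± 8.52 CPM, in the Zeb2 cluster 21.5 ± 8.33 CPM and in the Agbl1 cluster 15.5 ± 12.0 CPM (SD, n = 4 each). In the Sox5 cluster of D3TA replicate 1 it had 23 UMIs, or 1.04 CPM (95% exact Poisson interval 0.659 to 1.56). The order was follicular, marginal zone, then the other 3, and the Zeb2 and Agbl1 clusters did not differ beyond their spread.

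At a finer clustering resolution of 2, a cluster of 446 cells led by Agbl1 and Akap12 had the highest score of all clusters for transitional or precursor B cell markers (0.504), although its own highest score was for follicular markers (0.628). It held 80 of the 174 follicular B-like cells of D3TA replicate 1 and 46 of the 2135 of D3TA replicate 2, against 147 of 3510 and 110 of 2365 in the WT libraries. Vpreb3 stood there at 1258 and 252 CPM in the D3TA libraries and at 459 and 431 CPM in the WT libraries. A germinal center cluster of 699 cells, led by Mybl1 and Rgs13, had Vpreb3 at 549 and 135 CPM in the D3TA libraries and at 158 and 175 CPM in the WT libraries. In both clusters D3TA replicate 1 was above and D3TA replicate 2 below both WT libraries.

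Cr2 and Fcer2a separated the B cell subsets in opposite directions. Cr2 in marginal zone B-like cells stood at 663 and 1962 CPM in the D3TA libraries and at 1872 and 1769 CPM in the WT libraries. In follicular B-like cells it stood at 312 and 695 CPM in the D3TA libraries and at 763 and 656 CPM in the WT libraries. Within every library the marginal zone level was the higher of the pair. Cr2 averaged 207 ± 67.9 CPM in the Agbl1 cluster and 68.6 ± 53.8 CPM in the Zeb2 cluster (SD, n = 4 each), and stood at 31.0 CPM in the Sox5 cluster of D3TA replicate 1.

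Fcer2a, the low-affinity receptor for IgE, stood in follicular B-like cells at 194 and 365 CPM in the D3TA libraries and at 411 and 416 CPM in the WT libraries. In marginal zone B-like cells it stood at 139 and 112 CPM in the D3TA libraries and at 105 and 112 CPM in the WT libraries. The follicular level was the higher in every library. Fcer2a averaged 24.4 ± 20.3 CPM in the Agbl1 cluster and 10.9 ± 7.42 CPM in the Zeb2 cluster (SD, n = 4 each), which did not differ beyond their spread. In the Sox5 cluster of D3TA replicate 1 it had 49 UMIs, or 2.21 CPM (1.64 to 2.93).

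The share of cells with a UMI showed the same split when each cell was thinned to 1000 UMIs. Cr2 was seen in 50.9% (37.3 to 64.4) and 76.3% (73.9 to 78.7) of marginal zone B-like cells of the D3TA libraries, and in 75.7% (73.1 to 78.2) and 75.6% (73.0 to 78.2) of those of the WT libraries. In follicular B-like cells Cr2 was seen in 17.8% (12.4 to 24.3) and 40.4% (38.3 to 42.6) of cells of the D3TA libraries and in 44.7% (43.0 to 46.4) and 39.5% (37.6 to 41.5) of those of the WT libraries. In T cell-like cells it was seen in 0.342% and 1.64% in the D3TA libraries and in 27.2% and 2.04% in the WT libraries. Unthinned, Cr2 was seen in 92.98% and 97.1% of D3TA and 96.99% and 98.99% of WT marginal zone B-like cells, and in 50.6% and 78.1% of D3TA and 79.2% and 79.9% of WT follicular B-like cells. Fcer2a was seen in 16.1% (10.97 to 22.4) and 29.7% (27.8 to 31.7) of follicular B-like cells of the D3TA libraries, and in 30.9% (29.3 to 32.5) and 32.1% (30.2 to 34.0) of those of the WT libraries. In marginal zone B-like cells Fcer2a was seen in 12.3% (5.08 to 23.7) and 10.6% (8.98 to 12.5) in the D3TA libraries and in 11.7% (9.88 to 13.7) and 9.04% (7.40 to 10.9) in the WT libraries. The Fcer2a intervals of the follicular and marginal zone cells of D3TA replicate 1 overlap. Thinning left out 0 and 3 D3TA and 78 and 0 WT follicular B-like cells. Unthinned, the Fcer2a shares were 44.3% and 80.1% in the D3TA libraries and 71.8% and 82.7% in the WT libraries, at median depths of 5917 to 6644 UMIs. In T cell-like cells, which should lack Fcer2a, the thinned share was 0% (up to 0.315%) and 0.772% in the D3TA libraries and 10.5% and 0.571% in the WT libraries, at median depths of 7573, 7695, 1433 and 8052 UMIs. In the other libraries the marginal zone shares of Fcer2a lay above the T cell shares. In WT replicate 1 the T cell share was close to the 11.7% of its marginal zone B-like cells. The part of background in that 11.7% was not tested. Of the 5309 T cell-like cells of that library, 4182 lay in a cluster with a median of 1182 UMIs. Whether free RNA, doublets or the naming of such cells gave its T cell share was not tested.

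Fcmr, the receptor for the Fc part of IgM, was lowest among the B cell clusters in marginal zone B-like cells, at 239 ± 50.5 CPM, against 482 ± 95.1 CPM in follicular B-like cells, 536 ± 62.7 CPM in the Zeb2 cluster and 659 ± 124 CPM in the Agbl1 cluster (SD, n = 4 each). Cd22 ran differently, averaging 744 ± 172 CPM in the Zeb2 cluster, 469 ± 81.6 CPM in marginal zone, 435 ± 19.0 CPM in follicular and 227 ± 41.0 CPM in Agbl1-cluster cells. The marginal zone and follicular levels of Cd22 did not differ beyond their spread. In the Sox5 cluster of D3TA replicate 1, Cd22 stood at 189 CPM and Fcmr at 333 CPM.

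Ms4a1, which encodes CD20, a membrane protein targeted by therapeutic antibodies against B cells, averaged 1186 ± 12.1 CPM in marginal zone, 1141 ± 91.5 in Agbl1-cluster and 1055 ± 210 in follicular B-like cells. Its mean in the Zeb2 cluster was 682 ± 222 CPM (SD, n = 4 each), and its level in the Sox5 cluster of D3TA replicate 1 was 1291 CPM. Tnfrsf13c, the receptor for the survival factor BAFF, averaged 192 ± 37.6 CPM in follicular B-like cells, 131 ± 24.2 in marginal zone, 120 ± 23.1 in Agbl1-cluster and 118 ± 8.31 in Zeb2-cluster cells. The last 3 did not differ beyond their spread. The Zeb2, Sox5 and Agbl1 clusters were alike in keeping Cd79a and Cd79b and in less Vpreb3, Fcer2a and Cr2 than follicular B-like cells, and unlike in Cd22, which was high in the Zeb2 cluster and low in the other pair.

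**Figure D2:**
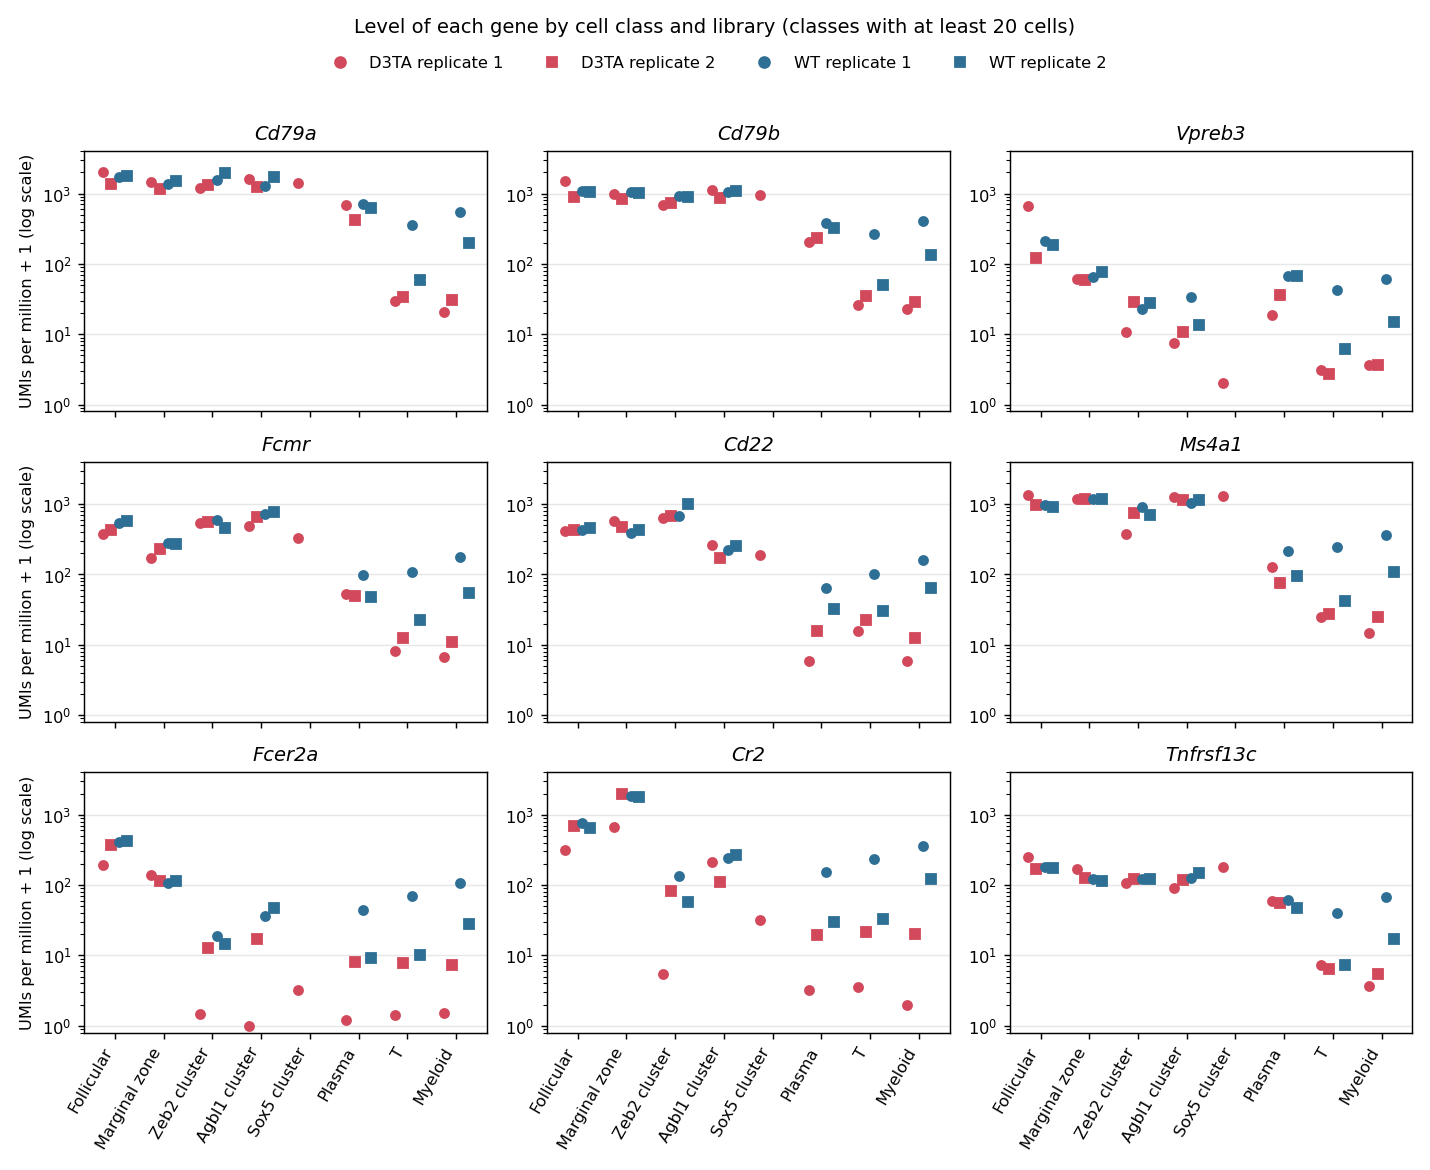
Level of each of the 9 genes, 1 panel per gene, as CPM plus 1 on a log scale, in B cell clusters, plasma cell-like, T cell-like and myeloid-like cells; each point is 1 library with at least 20 cells of the class. Cr2 peaks in marginal zone and Fcer2a in follicular B-like cells. In T cell-like and myeloid-like cells WT replicate 1 lies above the other libraries for all 9 genes.

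Whether the knock-in changed the amount of these transcripts was first asked in the whole spleen, with all kept cells of a library summed. From here on, levels compared between genotypes are CPM after edgeR's TMM scaling (scaled CPM). All 9 genes were lower in both D3TA spleens than in either WT spleen, and 5 of them passed the test. Genes whose groups did not overlap in that direction made up 28.6% of the 18345 genes tested. Genes called in either direction at an adjusted p under 0.05 made up 6.03%, and those called lower in D3TA 0.376%. The median log2 fold change of the 9 genes was -1.18, against -0.00322 over all genes tested. DESeq2 called 7 of the 9 and 13.3% of all genes tested.

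Cd79a stood at 451 and 495 scaled CPM in D3TA spleens against 1006 and 1130 in WT spleens, with log2 fold change -1.18 ± 0.22 (SE) at an edgeR adjusted p of 0.0484. Cd79b stood at 286 and 335 scaled CPM in D3TA spleens against 701 and 666 in WT spleens, with log2 fold change -1.14 ± 0.21 (edgeR adjusted p = 0.0463). Vpreb3 stood at 18.0 and 31.7 scaled CPM in D3TA spleens against 103 and 74.6 in WT spleens, with the lowest log2 fold change of the 5 called, -1.84 ± 0.33 (edgeR adjusted p = 0.0438). All 3 pairs of values lay clearly apart.

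Fcmr stood at 107 and 146 scaled CPM in D3TA spleens against 287 and 285 in WT spleens (log2 fold change -1.18 ± 0.22, edgeR adjusted p = 0.0484). Tnfrsf13c stood at 57.0 and 57.1 scaled CPM in D3TA spleens against 104 and 95.4 in WT spleens (log2 fold change -0.81 ± 0.15, edgeR adjusted p = 0.0470). The 2 D3TA spleens were nearly equal for Tnfrsf13c, as were the 2 WT spleens for Fcmr. Cd22, Ms4a1, Fcer2a and Cr2 did not pass. Cd22 stood at 80.9 and 166 scaled CPM in D3TA spleens against 270 and 373 in WT spleens (log2 fold change -1.38 ± 0.40, edgeR adjusted p = 0.128). Ms4a1 stood at 342 and 400 scaled CPM in D3TA spleens against 666 and 624 in WT spleens (log2 fold change -0.80 ± 0.21, edgeR adjusted p = 0.110). The D3TA spleens differed more from each other for Cd22 than for Ms4a1. Cr2 stood at 16.4 and 374 scaled CPM in D3TA spleens against 673 and 528 in WT spleens (log2 fold change -1.62 ± 1.26, edgeR adjusted p = 0.488). Fcer2a stood at 3.89 and 69.3 scaled CPM in D3TA spleens against 177 and 123 in WT spleens (log2 fold change -2.04 ± 1.19, edgeR adjusted p = 0.371). For both genes the D3TA spleens lay further from each other than the higher of them lay from the nearer WT spleen.

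B-cell-like cells held 79.1% and 88.1% of the UMIs of the 9 genes in the D3TA libraries and 81.4% and 91.6% in the WT libraries. Over the same libraries they were 18.0% and 38.6% of D3TA cells and 55.2% and 68.6% of WT cells. For Vpreb3 the share in B-cell-like cells was 38.4% and 77.6% in the D3TA libraries and 77.0% and 81.2% in the WT libraries, and clusters left unnamed held 48.7% and 12.2% of its UMIs in the D3TA libraries and 6.46% and 10.7% in the WT libraries. One of these, led by Siglech, Pclaf, Grm8, Mybl1 and Rgs13, had Vpreb3 at 150 and 111 CPM in the D3TA libraries and at 150 and 151 CPM in the WT libraries. In a sum over the spleen, fewer B cells and less RNA per B cell cannot be told apart. The calls were lost when either WT library was left out, and more members were called without D3TA replicate 2. Calls over all genes tested fell and rose likewise. With every barcode kept 0 members passed, where 5.47% of all genes tested were called. All 9 fold changes stayed negative in each of these.

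**Figure D3:**
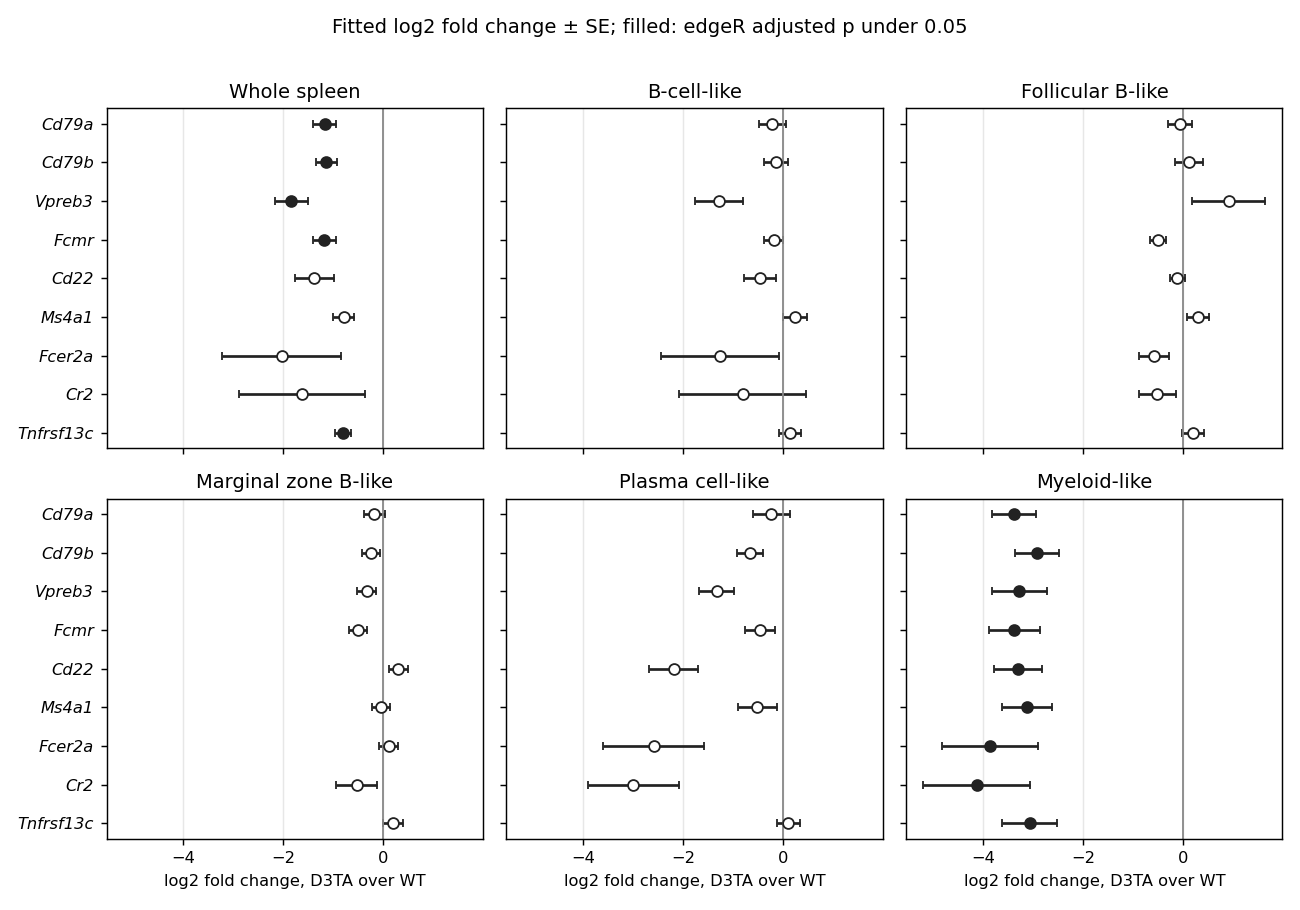
Log2 fold change, D3TA over WT, of each of the 9 genes in 6 fits, with bars of 1 SE; filled points have an edgeR adjusted p under 0.05. Filled points lie in the whole spleen (5 genes) and in myeloid-like cells (9 genes), and in B-cell-like, follicular, marginal zone and plasma cell-like cells every point is open.

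Within B-cell-like cells, none of the 9 genes passed the test. edgeR called 0% of the 15070 genes tested there, 772 genes and none of the 9 had an unadjusted p under 0.05, and DESeq2 called 174 genes and none of the 9. The median log2 fold change of the 9 was -0.22, against -0.00124 over all genes tested. On the scaled CPM scale Cd79a stood at 1520 and 1226 in D3TA B-cell-like cells against 1490 and 1706 in WT (log2 fold change -0.22 ± 0.26, edgeR adjusted p = 0.940). Cd79b stood at 1004 and 822 in D3TA against 1031 and 998 in WT (log2 fold change -0.15 ± 0.24, edgeR adjusted p = 0.955). The groups overlapped for both.

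Vpreb3, Fcmr and Fcer2a were lower and Ms4a1 higher in both D3TA libraries than in both WT libraries, 3 and 1 of 9, where 19.2% and 17.4% of all genes tested did the same. Vpreb3 stood at 30.2 and 70.8 scaled CPM in D3TA B-cell-like cells against 145 and 101 in WT (log2 fold change -1.28 ± 0.48, edgeR adjusted p = 0.870). Fcmr stood at 389 and 382 scaled CPM in D3TA against 433 and 444 in WT (log2 fold change -0.19 ± 0.19, edgeR adjusted p = 0.927). Ms4a1 stood at 1235 and 1019 scaled CPM in D3TA against 983 and 937 in WT (log2 fold change 0.23 ± 0.24, edgeR adjusted p = 0.929). Fcmr in both D3TA libraries was just below the WT libraries. Ms4a1 was just above them in D3TA replicate 2 and further above in D3TA replicate 1. Fcer2a stood at 12.9 and 180 scaled CPM in D3TA against 270 and 195 in WT (log2 fold change -1.26 ± 1.18, edgeR adjusted p = 0.920). Cr2 stood at 55.8 and 1008 scaled CPM in D3TA against 1036 and 837 in WT (log2 fold change -0.82 ± 1.27, edgeR adjusted p = 0.955). For Cr2, D3TA replicate 2 lay between the WT libraries and D3TA replicate 1 far below both. D3TA replicate 1 is the library in which 1516 of 2123 B-cell-like cells were in the Sox5 cluster. Without that cluster the log2 fold change of Cr2 was -0.67, that of Fcer2a -0.98 and that of Vpreb3 -0.31. Without D3TA replicate 2, 3 members passed (Vpreb3, Fcer2a and Cr2), where 18.4% of all genes tested were called.

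Within follicular B-like cells, 0 of 9 members passed, against 0.0623% of the 12834 genes tested, and 1 of 9 had an unadjusted p under 0.05 (DESeq2 called 0 of 9 and 70 genes in all; 882 genes had an unadjusted p under 0.05). That gene was Fcmr, at 371 and 426 scaled CPM in D3TA follicular B-like cells against 545 and 591 in WT (log2 fold change -0.51 ± 0.16, edgeR adjusted p = 0.658). Fcmr, Cd22 and Fcer2a did not overlap between the genotypes and were lower in D3TA, 3 of 9, where 20.8% of all genes tested were. Fcer2a stood at 193 and 358 scaled CPM in D3TA against 413 and 424 in WT (log2 fold change -0.58 ± 0.30, edgeR adjusted p = 0.782). Cd22 was close in all 4 libraries, at 415 and 420 scaled CPM in D3TA against 434 and 472 in WT. The signalling pair overlapped: Cd79a stood at 2040 and 1337 scaled CPM in D3TA against 1704 and 1831 in WT. Cd79b stood at 1507 and 874 scaled CPM in D3TA against 1096 and 1091 in WT. D3TA replicate 1 was above and D3TA replicate 2 below both WT libraries for each chain, and also for Tnfrsf13c, at 247 and 167 scaled CPM in D3TA against 179 and 176 in WT.

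In follicular B-like cells Vpreb3 had the highest fitted log2 fold change of the 9, and 1 library carried it. It stood at 658 and 120 scaled CPM in D3TA against 215 and 188 in WT (log2 fold change 0.91 ± 0.73, edgeR adjusted p = 0.869). Without the finer cluster led by Agbl1 and Akap12, its unscaled levels were 196 and 118 CPM in D3TA against 193 and 168 CPM in WT, and the fitted log2 fold change was -0.31. That step was added after these values were seen. Without D3TA replicate 1, 5 members passed, where 28.7% of all genes tested were called, and without D3TA replicate 2, 7 passed, where 12.0% were called. Fcmr was lower in D3TA in both, by 0.41 and 0.62 on the log2 scale. The fitted sign of Vpreb3 was negative without D3TA replicate 1 and positive without D3TA replicate 2. The summed level of 20 neutrophil markers in follicular B-like cells was 4945 and 3027 CPM in D3TA and 135 and 88.2 CPM in WT, with Ctsg at 0 in WT replicate 1 and Elane at 0 in WT replicate 2. The 8 genes called there, all higher in D3TA, were Ngp, Chil3, Mpo, Camp, Lcn2, Wfdc21, Ifitm6 and S100a8, all known from neutrophils and their precursors. The part of this background in the members' values was not tested.

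Within marginal zone B-like cells, 0 of 9 members passed (0.235% of the 12322 genes tested were called), DESeq2 called 0 of 9 and 38 genes in all, and 1 of 9 had an unadjusted p under 0.05, as did 1192 genes in all. Again this was Fcmr, at 170 and 221 scaled CPM in D3TA marginal zone B-like cells against 284 and 282 in WT (log2 fold change -0.50 ± 0.19, edgeR adjusted p = 0.442). Cd79b, Vpreb3, Fcmr and Ms4a1 were lower and Cd22 higher in both D3TA libraries, 4 and 1 of 9, where 22.3% and 16.7% of all genes tested did the same. Cd22 stood at 580 and 456 scaled CPM in D3TA against 398 and 440 in WT (log2 fold change 0.30 ± 0.19, edgeR adjusted p = 0.686). Ms4a1 was nearly level, at 1195 and 1137 scaled CPM in D3TA against 1209 and 1203 in WT.

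Cr2, the gene that marks this subset, stood at 663 and 1881 scaled CPM in D3TA marginal zone B-like cells against 1898 and 1821 in WT (log2 fold change -0.53 ± 0.41, edgeR adjusted p = 0.744). D3TA replicate 2 lay between the WT libraries, and D3TA replicate 1, with 57 cells, lay below both. Without D3TA replicate 1, 4 members passed (Cd79a, Cd79b, Vpreb3 and Fcmr, all lower in D3TA), where 19.7% of all genes tested were called, and the log2 fold change of Cr2 was 0.03. Without D3TA replicate 2, 3 passed (Fcmr and Cr2 lower, Cd22 higher), where 3.65% were called. Neutrophil markers summed to 3323 and 1981 CPM in D3TA and to 74.4 and 45.8 CPM in WT marginal zone B-like cells, with Ctsg at 0 in WT replicate 1 and Prtn3, Elane and Mpo at 0 in WT replicate 2, and their part in these values was not tested.

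Plasma cell-like cells numbered 199 and 247 in the D3TA libraries and 471 and 197 in the WT libraries. In 3 of the 4 libraries they had Cd79a, Cd79b, Vpreb3 and Tnfrsf13c well above the level in myeloid-like cells, and little Cd22, Fcer2a and Cr2. As a percentage of the level in B-cell-like cells of the same library, Vpreb3 was at 63.2 and 48.7 in D3TA and 45.5 and 66.2 in WT. Cd79a was at 49.0 and 32.6 in D3TA and 47.0 and 35.8 in WT. Tnfrsf13c was at 34.6 and 38.6 in D3TA and 39.7 and 33.6 in WT. Cd22 was at 1.79 and 3.42 in D3TA and 15.6 and 5.37 in WT, so that WT replicate 1 lay above the rest. In WT replicate 1 the same percentages in myeloid-like cells, which should lack these genes, were 40.3 for Vpreb3, 35.5 for Cd79a, 43.5 for Tnfrsf13c and 38.8 for Cd22, so that its plasma cell values of Tnfrsf13c and Cd22 lie below this background and those of Vpreb3 and Cd79a not far above it. Elsewhere the myeloid-like percentages of Vpreb3, Cd79a, Cd79b and Tnfrsf13c did not pass 13.5. The 63.2 of Vpreb3 in D3TA replicate 1 was set against a low level in its B-cell-like cells, most of them in the Sox5 cluster. That level was 30.2 scaled CPM, against 70.8 in D3TA replicate 2 and 145 and 101 in WT. In plasma cell-like cells Vpreb3 was lowest in D3TA replicate 1, at 18.4 scaled CPM.

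No member passed between genotypes in plasma cell-like cells, where edgeR called 0.152% of the 10559 genes tested. DESeq2 called 1, Cd22, and 0.805% of all genes tested, and 5 members had an unadjusted p under 0.05, as did 587 genes in all. Those 5, Cd79b, Vpreb3, Cd22, Fcer2a and Cr2, were also the 5 of 9 that were lower in both D3TA libraries, where 14.9% of all genes tested were. Cd22 stood at 4.99 and 14.6 scaled CPM in D3TA plasma cell-like cells against 56.6 and 35.2 in WT (log2 fold change -2.19 ± 0.49, edgeR adjusted p = 0.248). Vpreb3 stood at 18.4 and 35.0 scaled CPM in D3TA against 59.8 and 75.4 in WT (log2 fold change -1.33 ± 0.34, edgeR adjusted p = 0.344). Cr2 stood at 2.27 and 17.9 scaled CPM in D3TA against 135 and 31.9 in WT (log2 fold change -3.0 ± 0.91, edgeR adjusted p = 0.504).

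Cd79b stood at 211 and 230 scaled CPM in D3TA plasma cell-like cells against 343 and 359 in WT (log2 fold change -0.67 ± 0.26, edgeR adjusted p = 0.793). Fcer2a stood at 0.227 and 6.97 scaled CPM in D3TA against 38.1 and 9.04 in WT (log2 fold change -2.59 ± 1.00, edgeR adjusted p = 0.787). Tnfrsf13c was level in plasma cell-like cells, at 60.1 and 53.0 scaled CPM in D3TA against 53.4 and 52.3 in WT (log2 fold change 0.10 ± 0.23, edgeR adjusted p = 0.9996). Without WT replicate 1, 3 members passed (Vpreb3, Cd22 and Cr2), and without WT replicate 2, another set of 3 (Cd22, Fcer2a and Cr2), all lower in D3TA, where 2.33% and 2.77% of all genes tested were called. Neutrophil markers summed to 14035 and 7504 CPM in D3TA and to 359 and 33.6 CPM in WT plasma cell-like cells, where 2 and 6 of the 20 markers were at 0. Cells of non-B classes also carried the members at higher levels in WT, as given next, and the part of either background in these differences was not tested.

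Myeloid cells do not make a B cell receptor, and the 9 genes were measured in myeloid-like cells (neutrophil, monocyte and macrophage) as background. All 9 were lower in D3TA and all 9 passed, against 34.4% of the 13699 genes tested called in either direction and 16.8% called lower. Different clusters held most of this class in the genotypes. The 2 neutrophil clusters with the most D3TA cells held 1658 and 928, and 845 and 542, of the 4313 and 2282 myeloid-like cells of the D3TA libraries, against 2 and 12, and 6 and 7, of 1876 and 311 in the WT libraries. A cluster with a median of 960 UMIs held 979 of the cells of WT replicate 1, against 53 and 39 in the D3TA libraries. Without that cluster all 9 members again passed, with log2 fold changes of -3.62 (Cr2) to -2.38 (Tnfrsf13c). The part of this makeup in the values was not tested. The groups did not overlap for any of the 9, and the same held, lower in D3TA, for 34.7% of all genes tested. Their log2 fold changes ran between -4.13 and -2.92, with a median of -3.31 against 0.02 over all genes tested. Cd79a stood at 25.4 and 32.8 scaled CPM in D3TA myeloid-like cells against 437 and 169 in WT (log2 fold change -3.39 ± 0.44, edgeR adjusted p = 0.00140). Cd22 stood at 6.11 and 12.7 scaled CPM in D3TA against 128 and 54.6 in WT (log2 fold change -3.31 ± 0.48, edgeR adjusted p = 0.00202). Within each genotype the levels also differed, D3TA replicate 1 being lower than D3TA replicate 2 and WT replicate 2 lower than WT replicate 1 for both genes. Fcer2a stood at 0.673 and 7.12 scaled CPM in D3TA against 85.2 and 23.1 in WT (log2 fold change -3.87 ± 0.96, edgeR adjusted p = 0.0166). Cr2 stood at 1.27 and 21.7 scaled CPM in D3TA against 289 and 104 in WT (log2 fold change -4.13 ± 1.07, edgeR adjusted p = 0.0192).

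Set against B-cell-like cells of the same library, the 9 genes lay close together in each WT library. In myeloid-like cells they stood at 1.21% to 9.38% of the B-cell-like level in D3TA replicate 1 (median over genes 1.77%) and at 1.85% to 3.67% in D3TA replicate 2 (median 2.59%). They stood at 33.8% to 43.5% in WT replicate 1 (median 38.8%) and at 10.7% to 14.2% in WT replicate 2 (median 11.9%). The 9.38% of D3TA replicate 1 was that of Vpreb3, whose level in B-cell-like cells was lowest in that library. In T cell-like cells the medians were 3.50% and 2.88% in the D3TA libraries and 24.7% and 4.57% in the WT libraries. The 11 B cell markers, none of them a member and all with UMIs in every library, summed to 542 and 1058 CPM in D3TA myeloid-like cells and to 7185 and 2895 CPM in WT. The 12 T cell markers, all with UMIs in every library, summed to 79.8 and 60.4 CPM in D3TA and to 542 and 157 CPM in WT. B-cell-like cells gave 22.7% and 34.0% of all UMIs of the D3TA libraries and 55.3% and 61.1% of those of the WT libraries. The part of free RNA in the myeloid values was not tested.

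**Figure D4:**
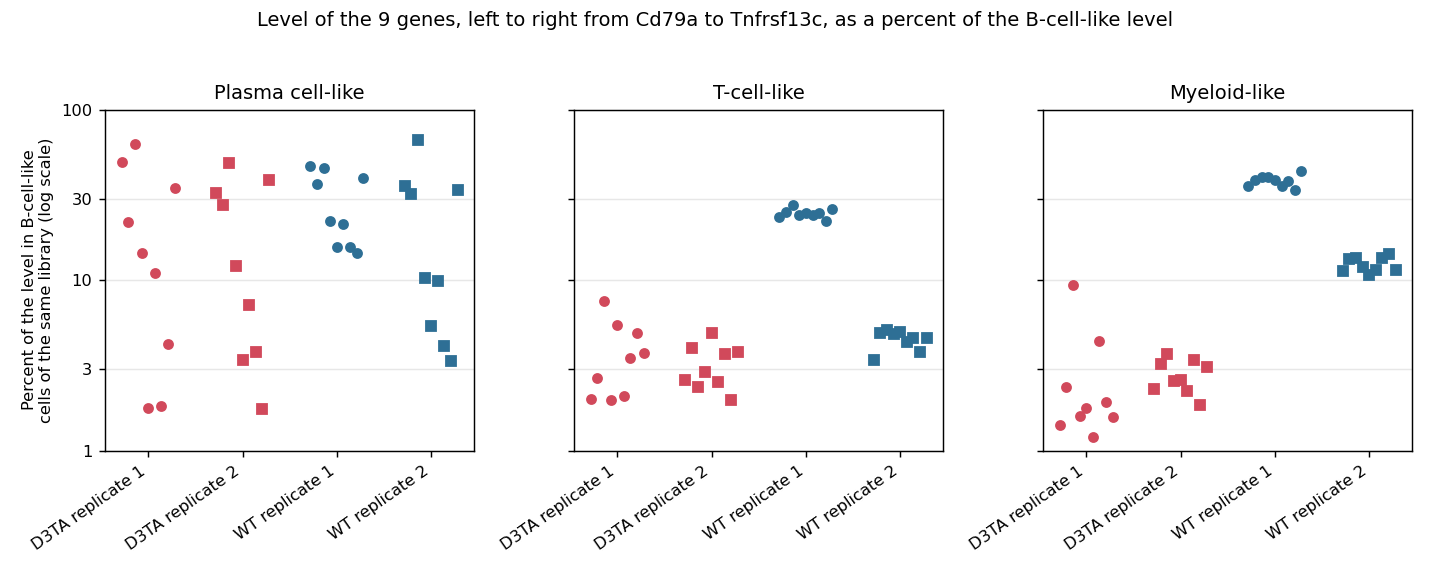
Level of each of the 9 genes in plasma cell-like, T cell-like and myeloid-like cells, in percent of the level in B-cell-like cells of the same library, on a log axis; each point is 1 gene, with the D3TA libraries on the left of each panel. In myeloid-like cells the genes lie between 1.85% and 3.67% in D3TA replicate 2 and between 33.8% and 43.5% in WT replicate 1, and in plasma cell-like cells those of D3TA replicate 1 lie between 1.79% and 63.2%.

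With the depth of a cell set to 1000 UMIs, Cd79a was seen in 1.62% (1.26 to 2.05) and 3.67% (2.92 to 4.54) of D3TA myeloid-like cells and in 42.1% (39.2 to 45.0) and 10.1% (6.82 to 14.3) of WT myeloid-like cells. In follicular B-like cells the same shares were 83.3% and 69.2% in the D3TA libraries and 75.3% and 77.5% in the WT libraries. Thinning left out 125 and 101 D3TA and 741 and 34 WT myeloid-like cells. Unthinned, the myeloid shares were 11.7% and 17.3% in the D3TA libraries and 53.1% and 25.7% in the WT libraries, at median depths of 9015, 9269, 1177 and 4336 UMIs.

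The other genes of the pathway were read from 4 lists in the same fits. Of 20 genes of the receptor itself and its proximal signalling (Ighm, Ighd, Lyn, Syk, Btk, Blnk and others), edgeR called 0 in the whole spleen, B-cell-like, follicular, marginal zone and plasma cell-like cells. At an unadjusted p under 0.05 there were 5, 0, 0, 1 and 5 in these fits, all lower in D3TA. Over all genes, 4064 of 18345, 772 of 15070, 882 of 12834, 1192 of 12322 and 587 of 10559 tested were under 0.05, in either direction. DESeq2 called 4 of the 20 in the whole spleen and 1 in plasma cell-like cells, all lower, where it called 13.3% and 0.805% of all genes tested. In the other 3 fits DESeq2 called 0 of the 20. Their median log2 fold change was -0.48 in the whole spleen and 0.10 in B-cell-like cells, against -0.00322 and -0.00124 over all genes tested. In myeloid-like cells, where 16.8% of all genes tested were called lower in D3TA, 9 of the 20 passed, all lower. Among them were Blnk, an adaptor downstream of the receptor, and Blk, a kinase of the Src family. Blnk stood at 13.4 and 21.8 scaled CPM in D3TA myeloid-like cells against 221 and 111 in WT (log2 fold change -3.25 ± 0.39, edgeR adjusted p = 0.00108).

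Of 18 B cell transcription factors, 2 passed in the whole spleen, both lower in D3TA. Of all genes tested there, 0.376% were called lower and 6.03% in either direction. Id3, an inhibitor of E proteins, stood at 18.9 and 21.8 scaled CPM in D3TA spleens against 57.5 and 42.9 in WT spleens (log2 fold change -1.30 ± 0.21, edgeR adjusted p = 0.0321). Spib, an ETS family factor, stood at 39.2 and 49.4 scaled CPM in D3TA spleens against 90.7 and 82.0 in WT spleens (log2 fold change -0.96 ± 0.18, edgeR adjusted p = 0.0489). Without WT replicate 1 or WT replicate 2 neither passed, with edgeR adjusted p = 0.221 and 0.098 for Id3 and 0.408 and 0.288 for Spib, and without D3TA replicate 1 Id3 did not (0.0569). In B-cell-like, follicular, marginal zone and plasma cell-like cells edgeR called 0 of the 18, and DESeq2 called 0 in all 4. At an unadjusted p under 0.05 there were 1, 1, 2 and 4, beside 772, 882, 1192 and 587 of all genes tested. In myeloid-like cells, where 16.8% of all genes tested were called lower in D3TA, 13 of 18 passed, all lower. Pou2f2, Id3, Ikzf3, Irf8, Pou2af1 and Bach2 had the smallest p.

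Of 11 inhibitory receptors and phosphatases, 3 passed in the whole spleen, where 6.03% of all genes tested were called. Siglecg, a sialic acid-binding lectin related to Cd22, stood at 71.8 and 75.4 scaled CPM in D3TA spleens against 141 and 126 in WT spleens (log2 fold change -0.86 ± 0.16, edgeR adjusted p = 0.0470). Pirb and Lilrb4a, inhibitory receptors that myeloid cells also carry, were higher in D3TA by 1.77 ± 0.26 and 2.38 ± 0.24 on the log2 scale (edgeR adjusted p = 0.0266 and 0.0111). Without WT replicate 2 none of the 3 passed (edgeR adjusted p = 0.360 for Siglecg, 0.151 for Pirb and 0.0738 for Lilrb4a), and without WT replicate 1 Siglecg and Pirb did not (0.529 and 0.114). In B-cell-like, follicular, marginal zone and plasma cell-like cells edgeR called 0 of the 11, and DESeq2 called 0 in all 4. At an unadjusted p under 0.05 there were 1, 1, 1 and 3, beside 772, 882, 1192 and 587 of all genes tested. In myeloid-like cells, where 16.8% of all genes tested were called lower in D3TA, 5 of the 11 passed, all lower: Fcrl1, Fcrla, Lair1, Cd5 and Siglecg.

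The list of 15 ligands and partner receptors was the only one of the 4 in which edgeR called genes within a B cell subset. In the whole spleen 2 of 15 passed, in marginal zone B-like cells 2 of 10 tested and in plasma cell-like cells 1 of 10 tested. Of all genes tested, 6.03%, 0.235% and 0.152% were called there. In B-cell-like and follicular B-like cells 0 of 12 and 0 of 10 tested passed. In myeloid-like cells 13 were tested, and 2 passed higher and 6 lower in D3TA, where 34.4% of all genes tested were called. In the whole spleen C3, the complement protein whose cleaved fragments bind Cr2, stood at 206 and 150 scaled CPM in D3TA against 5.69 and 7.97 in WT (log2 fold change 4.70 ± 0.29, edgeR adjusted p = 0.00578). Tnfsf13, the BAFF-related ligand APRIL, stood at 18.5 and 9.44 scaled CPM in D3TA spleens against 2.22 and 2.47 in WT spleens (log2 fold change 2.57 ± 0.38, edgeR adjusted p = 0.0260). Without WT replicate 1 or WT replicate 2 Tnfsf13 did not pass (edgeR adjusted p = 0.0653 and 0.0957). In myeloid-like cells C3 stood at 548 and 606 scaled CPM in D3TA against 71.6 and 193 in WT (log2 fold change 2.13 ± 0.44, edgeR adjusted p = 0.00812). C3 also passed in marginal zone B-like cells, at 3.51 and 6.22 scaled CPM in D3TA against 0.416 and 0.571 in WT (edgeR adjusted p = 0.0208). In plasma cell-like cells it stood at 17.9 and 15.1 scaled CPM in D3TA against 1.42 and 1.19 in WT (edgeR adjusted p = 0.0300). Both calls depended on the processing: in marginal zone B-like cells DESeq2 did not call C3 (adjusted p = 0.206), nor did edgeR with cells named one by one (adjusted p = 0.984) or without D3TA replicate 2, WT replicate 1 or WT replicate 2 (adjusted p = 0.427, 0.212 and 0.0889). In plasma cell-like cells the edgeR call of C3 was lost with cells named one by one (adjusted p = 0.524), at Leiden resolution 2 (0.415), with doublets kept (0.714) and without D3TA replicate 1 or D3TA replicate 2 (0.153 and 0.117). In these 2 classes C3 and the neutrophil marker sums given above were both higher in D3TA. Within each genotype, the marginal zone library with the higher sum had the lower C3. In plasma cell-like cells the library with the higher sum had the higher C3. The part of neutrophil RNA in the C3 values was not tested.

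Tnfsf13b, the ligand BAFF that binds Tnfrsf13c, was higher in D3TA myeloid-like cells, at 40.9 and 43.3 scaled CPM against 8.85 and 24.3 in WT (log2 fold change 1.41 ± 0.41, edgeR adjusted p = 0.0305). That call was lost without D3TA replicate 1, D3TA replicate 2 or WT replicate 1 (edgeR adjusted p = 0.0949, 0.0956 and 0.126). Igha, the constant region of IgA, was higher in D3TA marginal zone B-like cells, at 54.5 and 123 scaled CPM against 16.2 and 15.1 in WT (log2 fold change 2.66 ± 0.31, edgeR adjusted p = 0.0158). With cells named one by one Igha did not pass (log2 fold change 1.77, edgeR adjusted p = 0.984). Igha is made in bulk by plasma cells, whose 12 markers summed to 712 and 667 CPM in D3TA and to 835 and 842 CPM in WT marginal zone B-like cells, with Sdc1 and Fkbp11 at 0 in D3TA replicate 1 and Tnfrsf17 at 0 in WT replicate 1. Mzb1, among these 12, was also a marker used to name marginal zone B-like cells, so this sum cannot track plasma cell RNA there. The part of plasma cell RNA in the Igha values was not tested. The other 6 genes of the list that passed in myeloid-like cells, Cd40, Cd2, St6gal1, Cd40lg, Pigr and Tnfrsf13b, were lower in D3TA. Of all genes tested there, 16.8% were called lower.

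The genes whose levels ran most like those of 4 members were read over 62 pairs of library and cell class with at least 50 cells, among 6983 genes with a mean of at least 20 CPM, members and immunoglobulin segments left out. The pairs share libraries and differ in depth, so these correlations of log2(CPM + 1) are descriptions. Cd79a ran most like Blnk (Pearson r = 0.982), Gm43388 (0.966) and Ly6d (0.966), and its r with Cd79b was also 0.982. Vpreb3 ran most like Pxdc1 (0.823), Ly6d (0.802) and Blnk (0.795), the lowest likeness of the 4. Cr2 ran most like Pxdc1 (0.928), Ebf1 (0.865) and Cnn3 (0.854), and Fcer2a like Pxdc1 (0.911), Cnn3 (0.843) and Gm47782 (0.833). The r between Cr2 and Fcer2a was 0.949, although they peaked in different B cell subsets, while Cr2 and Cd79a reached 0.726.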

How the data were processed

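The authors deposited 1 gene-by-barcode matrix of UMI counts per library, not normalized, and per the file headers the tool was Cell Ranger 7.0.1. The submitters' processing notes name the build mm10. Per the labels' protocols, libraries were made with GEM-X chips on a Chromium X. The sources used here give neither the annotation release nor whether intronic reads counted. The members and gene lists were chosen with earlier results of these data known.

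Cells were kept with at least 500 UMIs, 250 genes and at most 10% mitochondrial UMIs. Scrublet (scanpy 1.11.5) marked 1616 doublets of 53945 cells. Its automatic threshold marked none in WT replicate 1, so the mean of the other 3 thresholds was taken there. Counts were scaled to 10000 per cell, and 2000 variable genes without the 9 members, 30 principal components, 15 neighbours and Leiden clustering (leidenalg 0.10.2) at resolution 1 gave 33 clusters. Libraries were not integrated. Clusters were named by their best scoring markers, with at least 3 detected, and 5 stayed unnamed. A minimum subset score of 0.2 was required, and a cluster stayed unnamed where another class held more of its 10 leading genes, where a B cell marker led a cluster of another class, or where few UMIs came with no own marker. These rules and the doublet threshold were set after the data were seen.

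Summed UMIs of a class in each library were compared in R 4.3.3 by edgeR 4.0.16 (quasi-likelihood test after filterByExpr and TMM scaling, two-sided, Benjamini-Hochberg over all genes tested, adjusted p under 0.05). DESeq2 1.42.0 served as an alternative. Samples were grouped by genotype alone. Each fit was also run on simulated counts with 200 changed genes and the same spread set for every gene. That run cannot show how the fits behave where libraries of a genotype differ widely, as some did here. The text names the 9 members, called genes of 4 lists and, for 4 members, the 3 genes most like them. The 8 genes called in follicular B-like cells were named after their values were seen. Intervals are exact at 95% and cover counting error only. Alternatives covered cell filters, doublets, cluster resolution, scaling, low counts, leaving out each library and a replicate block. Leaving out single clusters and a crossed block were chosen after seeing the data. The edited codon cannot be read from counts.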

Additional observations from a re-analysis of the deposited data

Results flagged for a closer look

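The groups of Cd22 and Ms4a1 separated in opposite directions in different cell classes. Of all genes tested, 16.7% in marginal zone B-like and 17.4% in B-cell-like cells were higher in both D3TA libraries than in both WT libraries. In follicular B-like, plasma cell-like and myeloid-like cells 20.8%, 14.9% and 34.7% were lower in both. For Cd22 in marginal zone B-like cells both D3TA libraries lay above both WT libraries, with a log2 fold change of 0.2967 that did not pass the test. In follicular B-like cells both D3TA libraries lay below both WT libraries, with a log2 fold change of -0.1169, and the same held in plasma cell-like cells at -2.1917 and in myeloid-like cells at -3.3053. Of these 4, the myeloid value alone passed in edgeR. The difference between the classes was not tested. Cells named one by one gave -0.27 for Cd22 in marginal zone B-like cells. For Ms4a1 both D3TA libraries lay above both WT libraries in B-cell-like cells, with a log2 fold change of 0.2313 that did not pass the test, and below both in myeloid-like cells, at -3.1224, which passed. That difference was not tested either.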

How the results depend on the processing

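With 2 libraries a group, the number of members called moved with the libraries used. In the whole spleen, where 5 passed, leaving out 1 library gave 0 to 9. It gave 0 to 3 in B-cell-like, 0 to 7 in follicular, 0 to 4 in marginal zone, 0 to 3 in plasma cell-like and 8 to 9 in myeloid-like cells. In each of these fits the share of all genes tested that was called also moved with the library left out. These ranges therefore do not set the members apart from other genes. Leaving out a library leaves 1 in its group, whose spread is then taken from the other genotype.

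Same-numbered D3TA and WT libraries did not deviate together, with correlations of -0.147 to 0.089 over the 6 fits. Each correlation rests on a single difference between replicates in each genotype, so it cannot show whether same-numbered mice were matched. The main fits treated the libraries as unpaired. With a replicate block 2 members passed in the whole spleen and 8 in myeloid-like cells, where 5.55% and 25.7% of all genes tested were called. No other call of a member changed. A crossed block gave 3 in the whole spleen and 2 in plasma cell-like cells, where 9.53% and 0.341% of all genes tested were called.

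In the whole spleen a stricter cell filter left 1 member and all barcodes left 0, where 6.84% and 5.47% of all genes tested were called. With no filter on low counts 1 passed in follicular and 4 in plasma cell-like cells, DESeq2 called 1 in plasma cell-like cells, and Leiden resolution 2, which left out D3TA replicate 1 for its few cells, gave 4 in marginal zone B-like cells, where 18.9% of all genes tested were called. Of all genes tested with no filter on low counts, 1.82% were called in follicular and 2.49% in plasma cell-like cells. DESeq2 called 0.805% in plasma cell-like cells. The mean share of follicular B-like cells with Fcer2a was 27.2% thinned to 1000 UMIs, 15.5% at 500 and 69.7% unthinned. The causes were not tested, beyond the smaller number of samples or cells.

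The sign of a log2 fold change turned in 28 of 765 recomputed values, none of them in the whole spleen or myeloid-like cells. With 1 library left out, values in B-cell-like cells ran from -4.06 to 0.12 for Cr2 and from -0.066 to 0.34 for Tnfrsf13c. In follicular B-like cells they ran from -0.40 to 0.20 for Cd79a, -0.32 to 0.46 for Cd79b, -0.74 to 1.70 for Vpreb3 and -0.087 to 0.47 for Tnfrsf13c. In marginal zone B-like cells they ran from -0.039 to 0.33 for Fcer2a, -1.49 to 0.026 for Cr2 and -0.0069 to 0.48 for Tnfrsf13c, and in plasma cell-like cells from -0.70 to 0.10 for Cd79a. Without the Sox5 cluster, B-cell-like cells gave 0.027 for Cd22, -0.17 for Ms4a1 and -0.062 for Tnfrsf13c. Without the Akap12 cluster, follicular B-like cells gave -0.31 for Vpreb3. With cells named one by one, follicular B-like cells gave -0.16 for Vpreb3 and 0.11 for Cd22, and marginal zone B-like cells -0.27 for Cd22, 0.060 for Ms4a1 and -1.42 for Fcer2a. Marginal zone Fcer2a turned to -0.032 under the stricter filter. Doublets kept gave 0.036 for Ms4a1 and -0.15 for Fcer2a there, resolution 0.5 gave 0.0032 for Ms4a1 and -0.16 for Fcer2a, and resolution 2 gave -0.074 for Fcer2a, 0.083 for Cr2 and -0.019 for Tnfrsf13c. In plasma cell-like cells resolution 2 gave 0.65 for Ms4a1.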
